A study of Mus musculus with 24 samples.

Results

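The comparison described here sets aortas of mice taken 4 months after an infusion of angiotensin II (Ang II) against aortas taken 2 months after it. Ang II is the effector peptide of the renin system, which narrows arteries. The groups were chosen by their labels: 4 Ang II libraries at 4 months and 4 at 2 months, which are 8 of the 24 libraries of the series, and these 8 were fitted alone. All mice are labelled wild type. An osmotic minipump under the skin delivered Ang II, or vehicle in the sham mice, over 2 weeks, so all groups carried a pump and none is an unoperated aorta. The same times in sham aortas, 4 libraries at 4 months and 4 at 2 months, are given beside the Ang II values. The study as a whole is about Axl, a TAM receptor, in remodelling of the hypertensive aorta. The labels used here do not state strain, sex, age, blood pressure, the hour at which tissue was taken or the stretch of aorta. They also do not say whether libraries of a group came from separate animals, so p-values measure the spread between these libraries, which may be technical.

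The aortic wall holds smooth muscle cells that contract, an endothelium that lines the lumen, and fibroblasts in the adventitia that make collagen, with fat around the vessel. Vascular cells also run a circadian clock, a feedback loop of transcription factors that makes many transcripts go up and down over the day. In this loop ARNTL (also called BMAL1), paired with CLOCK or NPAS2, switches on the genes of its own repressors and a set of output factors.

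RNA was measured in whole homogenates, as counts of reads per gene. Total counts per library were 19163673 to 21254864 at 4 months and 19380262 to 35130912 at 2 months. Levels are in CPM, counts scaled to a common library total with TMM factors over the 16 Ang II and sham libraries at both times, and differences are log2 values of 4 over 2 months with their standard error (SE). Acta2, which marks smooth muscle, was at 134 to 371 CPM at 4 months and 274 to 806 CPM at 2 months. Myh11 was at 69.7 to 187 CPM at 4 months and 150.2 to 442 CPM at 2 months. Tagln, another smooth muscle marker, was near the floor in every library, at 1.29 to 2.59 CPM at 4 months and 2.03 to 3.64 CPM at 2 months. The strand setting and the rule for shared reads are not given, and whether read counting lowered the Tagln values was not tested. Pecam1, of endothelium, was at 179 to 224 CPM at 4 months and 197 to 233 CPM at 2 months. Adipoq, of fat cells, was at 1668 to 1961 CPM at 4 months and 1408 to 2164 CPM at 2 months. In such bulk tissue, fewer cells of a type and less RNA per cell cannot be told apart.

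Several Ang II libraries stood apart by transcripts of other tissues. The summed level of 20 airway epithelium genes, 1 of which (Sftpb) has 2 entries in the table, was 501, 8075, 683 and 5348 CPM in replicates 1 to 4 at 4 months and 3213, 2169.9, 343 and 306 CPM at 2 months. Liver transcripts summed to 6.31, 8.16, 200.3 and 2779.6 CPM at 4 months and 10.3, 4.76, 7.56 and 7.65 CPM at 2 months, so they were high in 4-month replicates 3 and 4. That list of 14 genes, all summed, was added after the data were seen, and 4 of them passed the filter on low counts. Skeletal muscle genes summed to 629, 1842, 3580.0 and 5489 CPM at 4 months and 198, 4306, 10597 and 1882 CPM at 2 months. Ribosomal RNA genes took 1.61, 1.42, 1.54 and 1.44% of counts at 4 months and 0.933, 0.807, 1.23 and 1.31% at 2 months, and these ranges do not overlap. The 2-month replicate 1 was high in transcripts of fatty acid synthesis and early response genes, as given with those genes.

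**Figure D1:**
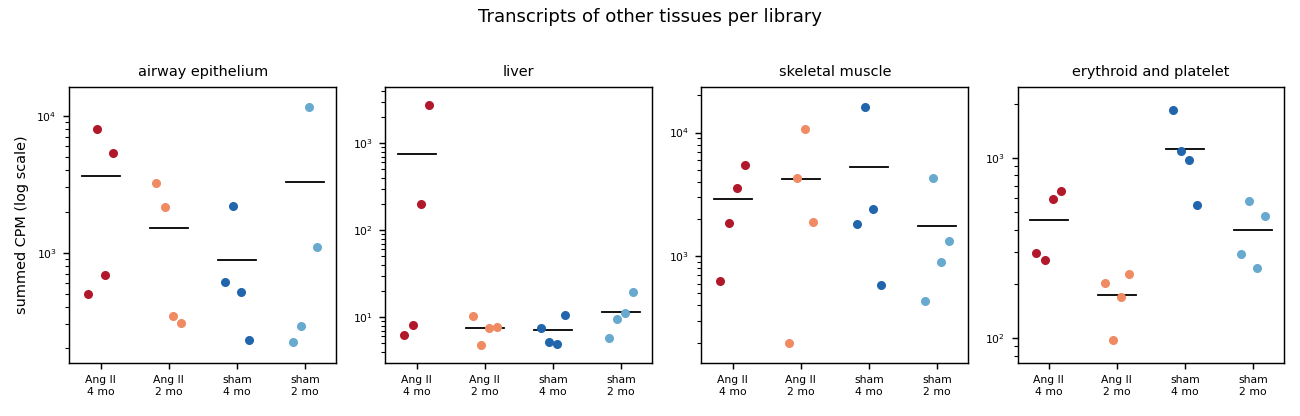
Summed CPM (log scale) of 4 lists of genes from other tissues in each library, with Ang II at 4 and 2 months and sham at 4 and 2 months from left to right. Points are libraries and lines are group means. Liver transcripts were high in 2 of the 4 Ang II libraries at 4 months, airway transcripts varied within both Ang II groups, and erythroid transcripts lay higher in all 4 Ang II libraries at 4 months than in any at 2 months.

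Across the transcriptome 1 gene differed between 4 and 2 months in the Ang II aorta by the test used. Of 16367 genes, 1 passed an adjusted p of 0.05 in edgeR's quasi-likelihood test (0.00611%). It was Cyp2b10, a cytochrome P450 of drug and steroid metabolism that the nuclear receptor CAR induces in mouse liver, and it rose. At an unadjusted p under 0.05, 813 genes (4.97%) were higher and 938 (5.73%) lower, 1751 in all (10.7%). Genes whose 4 libraries at 4 months all lay beyond all 4 at 2 months, called apart below, numbered 342 higher (2.09%) and 648 lower (3.96%). By sign alone, 54.6% of genes were positive and 45.4% negative. Of the 17244 genes to which it gave an adjusted p, DESeq2 called 113 higher (0.655%) and 153 lower (0.887%). Among the 16367 genes, on which the lists below are counted, DESeq2 called 94 higher and 149 lower. The DESeq2 shares given beside those lists, 0.655% and 0.887%, are of the 17244 genes and so of a somewhat different set. In sham aortas edgeR called 1 of 16144 genes (0.00619%), Prdm16, which was lower, with 2549 (15.8%) at an unadjusted p under 0.05. DESeq2 called 733 of 15670 genes there (4.68%). The interaction of treatment and time, fitted over the 16 libraries, called 0 of 17153 genes by edgeR, with 1813 (10.6%) at an unadjusted p under 0.05. For the interaction DESeq2 called 181 of 17752 genes (1.02%). The lowest adjusted p of the interaction by edgeR, 0.0529, was that of Banp, a gene singled out after its value was seen.

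Cyp2b10 lies on chromosome 7 (25897620 to 25926624, build mm10). It was at 52.1, 61.8, 40.2 and 57.6 CPM in Ang II aortas at 4 months and at 10.6, 12.9, 9.59 and 15.3 CPM at 2 months. The groups were far apart, with a 4.42-fold difference (log2 2.14 ± 0.19 SE, adjusted p = 0.0333 by edgeR). In sham aortas it was at 115, 102, 116 and 52.5 CPM at 4 months and 46.2, 37.8, 60.7 and 9.91 CPM at 2 months, with a log2 difference of 1.28 ± 0.49 (adjusted p = 0.252 by edgeR). The interaction was 0.81 ± 0.55 (adjusted p = 0.629 by edgeR), so a difference between the Ang II and sham changes was not shown. Cyp2b10 has close relatives in the genome, and the sources do not say how reads shared between genes were counted. Alb, of liver, was at 1.05, 1.56, 119 and 1711 CPM at 4 months and 0.478, 0.842, 1.82 and 0.427 CPM at 2 months, and Scgb1a1, of airway, was at 0.802, 1722, 97.7 and 1219 CPM at 4 months and 1097, 927, 57.9 and 7.52 CPM at 2 months. Without the liver-rich 4-month replicates 3 and 4 the Cyp2b10 difference was 2.24 (adjusted p = 0.113 by edgeR), and without the 4 airway-rich libraries it was 1.89 (adjusted p = 0.8103 by edgeR).

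The Cyp2b10 call did not survive the loss of most single libraries, while the size of the difference did. Without 4-month replicate 1, 2 or 4 the adjusted p by edgeR was 0.126, 0.171 and 0.202. Without 2-month replicate 1, 2, 3 or 4 it was 0.133, 0.0667, 0.131 and 0.0538. Over all 8 such fits the log2 difference lay between 2.03 and 2.26.

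The next genes by p did not pass, and their values are given as description. Fkbp5, a chaperone of the glucocorticoid receptor whose gene that receptor induces, was at 103, 98.8, 91.9 and 115 CPM at 4 months and 36.9, 52.4, 36.3 and 39.4 CPM at 2 months. All 4 libraries at 4 months lay above all at 2 months, with a log2 difference of 1.32 ± 0.15 (adjusted p = 0.0863 by edgeR), against 0.099 ± 0.23 in sham aortas. The 2-month Ang II libraries lay below all 12 other libraries for Fkbp5, as they did for 31 genes (0.189%). Slc4a4, a sodium bicarbonate cotransporter, was at 132 to 176 CPM at 4 months and 48.9 to 76.1 CPM at 2 months (log2 1.34 ± 0.15, adjusted p = 0.0863 by edgeR). Slc7a8, an amino acid transporter, was at 56.9 to 72.6 CPM at 4 months and 29.3 to 38.3 CPM at 2 months. Fbxo31, a substrate receptor of a ubiquitin ligase, was at 154 to 190.2 CPM at 4 months and 88.4 to 106 CPM at 2 months. In all of these the groups were apart, and the sham differences of Slc4a4, Slc7a8 and Fbxo31 were 0.78, 0.69 and 0.58.

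Xrcc3, a protein of DNA repair by recombination, was at 7.66 to 9.28 CPM at 4 months and 15.03 to 20.2 CPM at 2 months (log2 -1.01 ± 0.12, adjusted p = 0.0956 by edgeR). Elmod2 was at 21.3 to 27.9 CPM at 4 months and 41.4 to 55.1 CPM at 2 months (log2 -0.903 ± 0.13). Lama4, a laminin chain of vascular basement membrane, was at 93.4 to 117 CPM at 4 months and 139 to 163 CPM at 2 months (log2 -0.57 ± 0.08). None of these ranges overlap. Heyl, a transcriptional repressor downstream of Notch, was at 18.5 to 23.2 CPM at 4 months and 30.7 to 33.3 CPM at 2 months (log2 -0.58 ± 0.09), also apart. Lama4 and Heyl had sham differences of -0.74 and -1.21, of the same sign.

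**Figure D2:**
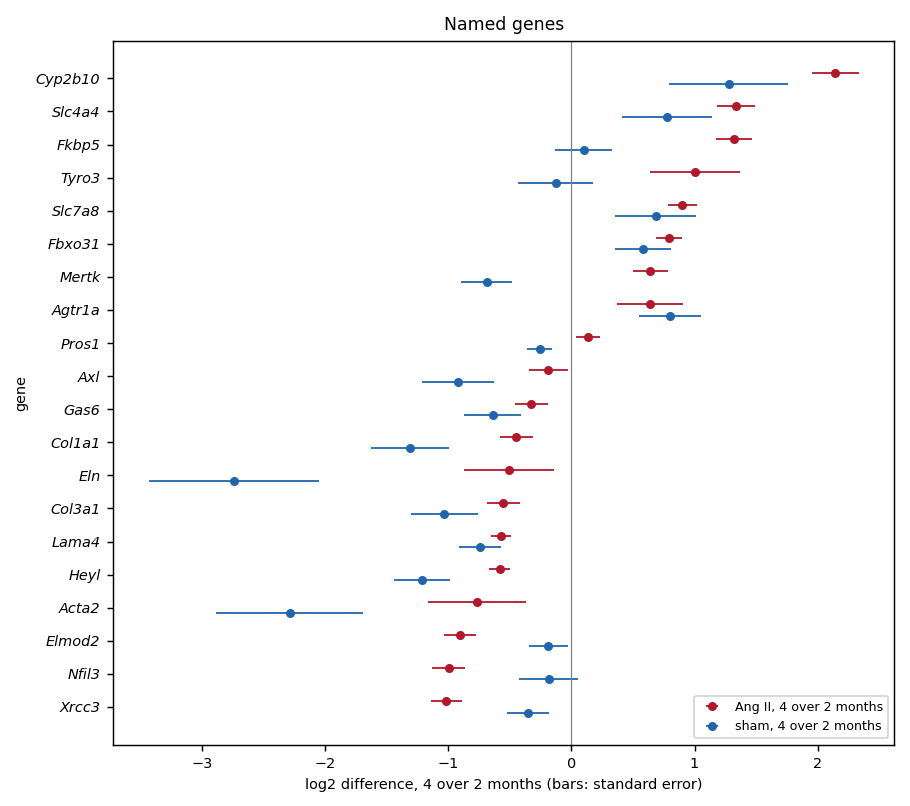
Log2 difference of 4 over 2 months (x axis) for the 20 named genes (y axis), in Ang II aortas (red, upper point) and sham aortas (blue, lower point), 4 libraries per group. Bars are standard errors. Cyp2b10 at 2.14 was the Ang II difference that passed the test, and Mertk had opposite signs, 0.64 in Ang II and -0.69 in sham aortas.

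Clock genes were often apart between the times in Ang II aortas. Of 20 measured, 7 lay higher at 4 months and were apart (Dbp, Tef, Hlf, Per2, Per3, Ciart and Bhlhe41), where 2.09% of all genes were, and 4 lay lower and were apart (Arntl, Npas2, Clock and Nfil3), where 3.96% were. Of these 20, edgeR called 0, and an unadjusted p under 0.05 was reached by 10 higher and 5 lower (4.97% and 5.73% of all genes). DESeq2 called 6 higher and 3 lower (0.655% and 0.887%). In sham aortas 0 of the 20 were apart in either direction, where 3.61% of all genes were higher and 6.01% lower. The list mixes activators and repressors, so its median, 0.37 in Ang II aortas against 0.02 for all genes, mixes both signs.

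The promoters of 3 of the clock genes that lay higher are printed because they hold an E-box, the site that ARNTL and CLOCK bind, and that of Fkbp5 because it is the 1 named gene with such letters. Sequences are from RefSeq (build GRCm38.p6), 120 bases each, 5′ to 3′ on the gene's strand, with the letters CACGTG in capitals. The Ciart stretch is chr3:95882246-95882365 on the minus strand, from 137 to 18 bases before the start of transcription. The Tef stretch, at 1 of its starts, is chr15:81802489-81802608 on the plus strand, from 184 to 65 bases before. Bhlhe41 is shown at chr6:145865511-145865630 on the minus strand, from 210 to 91 bases before, and Fkbp5 at chr17:28486256-28486375 on the minus strand, from 226 to 107 bases before.
Ciart: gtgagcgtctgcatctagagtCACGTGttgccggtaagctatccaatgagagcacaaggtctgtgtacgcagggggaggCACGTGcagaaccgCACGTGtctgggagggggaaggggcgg
Tef: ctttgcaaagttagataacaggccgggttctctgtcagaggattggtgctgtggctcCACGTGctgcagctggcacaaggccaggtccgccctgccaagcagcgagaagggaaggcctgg
Bhlhe41: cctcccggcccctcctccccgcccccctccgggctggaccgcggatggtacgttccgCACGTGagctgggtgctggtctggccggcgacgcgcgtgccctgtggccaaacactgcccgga
Fkbp5: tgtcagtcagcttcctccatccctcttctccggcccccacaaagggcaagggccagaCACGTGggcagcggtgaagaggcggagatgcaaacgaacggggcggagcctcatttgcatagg
The Ciart stretch holds 3 such words and the others hold 1 each.

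In windows of 250 bases before to 50 after each start, 17 of the 20 clock genes were matched and 5 of them held CACGTG (Bhlhe41, Ciart, Cry1, Per1 and Tef), against 8.09% of the 27025 genes in the table. The word reads the same on both strands. It was in 3 of the 6 matched clock genes that were apart and higher, and in 0 of the 4 that were apart and lower. Of the 20 named genes 15 were matched and 1 held it. A match describes the letters in this window and not a bound site.

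The output factors of the clock are the bZIP proteins DBP, TEF and HLF. Dbp was at 110.3, 115, 138 and 154 CPM in Ang II aortas at 4 months and at 40.1, 48.6, 69.3 and 71.98 CPM at 2 months. Tef was at 226, 225, 215 and 223 CPM at 4 months and 102, 119.5, 153 and 147 CPM at 2 months. For both genes every 4-month library was above every 2-month library, with log2 differences of 1.19 ± 0.21 for Dbp and 0.78 ± 0.13 for Tef (adjusted p = 0.173 for each by edgeR). Hlf was at 34.5 to 39.95 CPM at 4 months and 20.9 to 33.2 CPM at 2 months. In sham aortas Dbp was at 117 to 162 CPM at 4 months and 78.2 to 149 CPM at 2 months, and Tef was at 202 to 259 CPM at 4 months and 186 to 245 CPM at 2 months. Both genes overlapped there.

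Several repressors of the loop lay higher as well. Per2, a period protein, was at 16.8, 17.8, 16.1 and 19.1 CPM at 4 months and 4.85, 8.97, 10.2 and 11.8 CPM at 2 months (log2 0.98 ± 0.25). Per3 was at 34.5 to 43.7 CPM at 4 months and 19.1 to 27.9 CPM at 2 months. Ciart was at 5.06 to 7.33 CPM at 4 months and 1.397 to 3.204 CPM at 2 months, and Bhlhe41 was at 31.4 to 41.2 CPM at 4 months and 16.9 to 25.5 CPM at 2 months. For Tef, Bhlhe41, Dbp, Ciart and Per2 all 4 Ang II libraries at 2 months lay below all 12 other libraries, which was so for 0.189% of all genes. The 4-month Ang II values of these 5 genes overlapped those of the sham libraries. Per1, at 56.2 to 91.2 CPM at 4 months and 44.2 to 91.1 CPM at 2 months, overlapped between the times, as did Cry1, Cry2 and Nr1d1, with differences between -0.02 and 0.15.

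Of the activators, Arntl, Npas2 and Clock lay the other way, as did the repressor Nfil3. Rora, also in the clock list, overlapped between the times, with a difference of 0.197 to 0.335 when any 1 library was left out. Arntl was at 6.72, 7.22, 6.64 and 4.96 CPM at 4 months and 18.8, 13.5, 12.3 and 8.67 CPM at 2 months (log2 -1.04 ± 0.24). Npas2 was at 2.15, 1.56, 1.25 and 1.14 CPM at 4 months and 13.3, 5.23, 4.01 and 5.34 CPM at 2 months (log2 -2.17 ± 0.41). Both were apart, and both had the same sign in sham aortas, at -0.95 and -1.39, where the groups overlapped. Clock was at 36.8 to 48.7 CPM at 4 months and 52.5 to 68.96 CPM at 2 months. Nfil3, a repressor that competes with DBP for the same sites, was at 5.96, 6.56, 7.01 and 7.196 CPM at 4 months and 15.9, 11.8, 12.8 and 13.5 CPM at 2 months (log2 -0.996 ± 0.14, adjusted p = 0.129 by edgeR). It was the 1 clock gene whose 4-month Ang II libraries lay below all 12 others, which was so for 47 genes (0.287%).

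By the interaction of treatment and time, 7 of the 20 clock genes had an unadjusted p under 0.05, against 10.6% of all genes, and 0 passed the adjusted threshold in edgeR. The interaction was 1.05 ± 0.31 for Per2 and 0.92 ± 0.29 for Dbp (adjusted p = 0.272 and 0.3004 by edgeR). It was 0.63 ± 0.17 for Tef and -0.87 ± 0.29 for Nfil3. Leaving out any 1 library kept the Ang II difference of Dbp between 1.03 and 1.297 and that of Npas2 between -2.39 and -1.67. Without the 4 airway-rich libraries (4-month replicates 2 and 4, 2-month replicates 1 and 2) the differences were 0.81 for Dbp, 0.56 for Tef, 0.58 for Per2 and -0.65 for Arntl. The median of the clock list was then 0.09. Without the 2 liver-rich libraries they were 0.98 for Dbp, 0.79 for Tef, 0.95 for Per2 and -0.93 for Arntl.

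**Figure D3:**
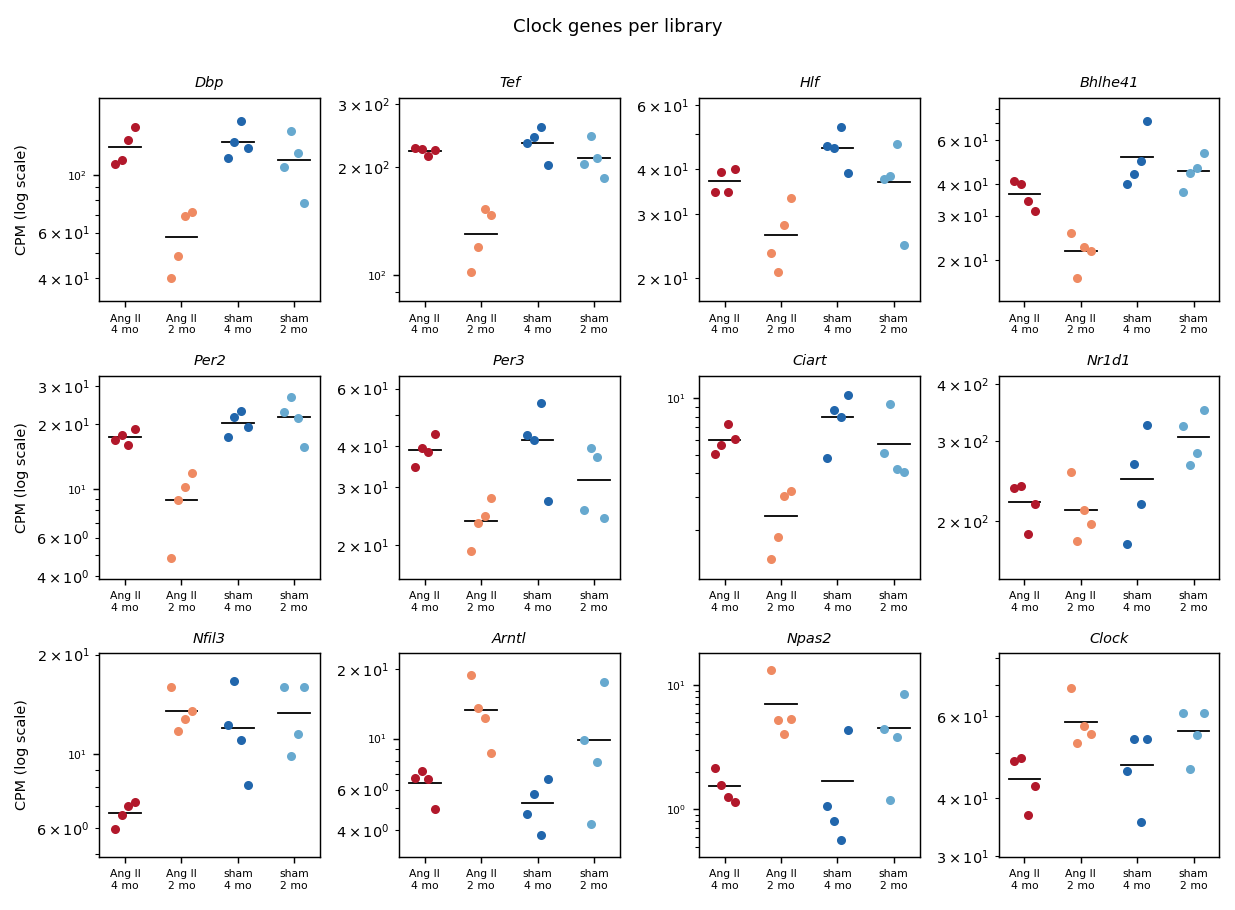
CPM (log scale) of 12 clock genes in each library, with Ang II at 4 and 2 months and sham at 4 and 2 months from left to right. Points are libraries and lines are group means (4 libraries per group). Dbp, Tef, Bhlhe41, Per2 and Ciart show the 2-month Ang II libraries below all others, Nfil3 shows the 4-month Ang II libraries below all others, and Nr1d1 shows overlapping Ang II groups.

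Genes induced by glucocorticoids, the adrenal steroids whose level also follows the day, did not share a direction. Of 12 measured, 2 were apart and higher (Fkbp5 and Mt2; 2.09% of all genes) and 1 was apart and lower (Cdkn1a; 3.96% of all genes), and the median was -0.06 against 0.28 in sham aortas. Of the 12, edgeR called 0, 4 higher and 1 lower had an unadjusted p under 0.05 (4.97% and 5.73% of all genes), and DESeq2 called 2 higher and 1 lower (0.655% and 0.887%). Leaving out any 1 library put the median between -0.21 and 0.03. Zbtb16, a transcription factor with a strong glucocorticoid response, was at 99.1, 74.03, 31.9 and 53.5 CPM at 4 months and 17.4, 33.7, 29.3 and 20.1 CPM at 2 months (log2 1.37 ± 0.35). The groups overlapped, and the interaction with sham was 2.37 ± 0.65 (adjusted p = 0.256 by edgeR). Cdkn1a, an inhibitor of the cell cycle, was at 49.1 to 63.7 CPM at 4 months and 69.2 to 149.9 CPM at 2 months. Sgk1, a kinase that regulates sodium transport, was at 34.6 to 98.3 CPM at 4 months and 83.6 to 123 CPM at 2 months, with overlap.

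Immediate early genes, which cells switch on within minutes of a stimulus, were mostly lower at 4 months, but unevenly. Of 22 measured, 20 had a negative difference (45.4% of all genes), with a median of -0.71 against -0.04 in sham aortas. Nr4a2, Fosb and Atf3 were apart and lower (3.96% of all genes), edgeR called 0, 4 lower had an unadjusted p under 0.05 (5.73%) and DESeq2 called 3 lower (0.887%). Nr4a2, an orphan nuclear receptor, was at 4.71, 4.95, 6.69 and 8.14 CPM at 4 months and 14.04, 23.3, 14.2 and 18.5 CPM at 2 months (log2 -1.502 ± 0.25, adjusted p = 0.173 by edgeR). The 2-month Ang II libraries lay above all 12 others for Nr4a2 and Atf3, which was so for 52 genes (0.318%). The interaction of Nr4a2 was -1.51 ± 0.35 (adjusted p = 0.206 by edgeR).

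The other early genes varied within both groups. Egr1 was at 13.6, 85.4, 154 and 103 CPM at 4 months and 466, 98.8, 19.9 and 26.7 CPM at 2 months. Nr4a1 was at 32.2, 47.1, 182 and 273 CPM at 4 months and 499, 487, 226 and 215 CPM at 2 months. The 2-month replicate 1 held the highest level of both. Without it the Egr1 difference was 0.88, against -0.75 with it, and the median of the list was -0.2998, without the 4 airway-rich libraries it was -0.19, and without the 2 liver-rich libraries it was -1.37.

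Genes of fatty acid synthesis, which turn citrate into fatty acids in fat cells and follow insulin and feeding, were lower at 4 months. All 16 measured had a negative difference (45.4% of all genes), with a median of -0.77 against -0.43 in sham aortas. Fasn, Pnpla3, Me1, Acaca, Acly and Srebf1 were apart and lower (3.96% of all genes), where in sham aortas 0 were. Of the 16, edgeR called 0, 12 lower had an unadjusted p under 0.05 (5.73%) and DESeq2 called 5 lower (0.887%). Fasn, the fatty acid synthase, was at 1322, 1659.9, 688 and 1344 CPM at 4 months and 15725, 2940.2, 5948 and 4729.8 CPM at 2 months (log2 -2.52 ± 0.52, adjusted p = 0.219 by edgeR). Acly, which makes acetyl-CoA from citrate, was at 525, 373, 219 and 345 CPM at 4 months and 4351, 687, 1274 and 1030.3 CPM at 2 months. Every 4-month library was below every 2-month library for both, and the 2-month replicate 1 was far above its group. Fasn, Pnpla3, Me1 and Acaca had their 4-month Ang II libraries below all 12 others, as 0.287% of all genes did.

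Without the 2-month replicate 1 the Fasn difference was -1.85, that of Acly -1.45, that of Srebf1 -0.33 (against -0.78 with it) and the median of the list -0.58. In sham aortas Fasn was at 2214, 2373, 1777 and 12445 CPM at 4 months and 5099, 3779, 3963 and 24819 CPM at 2 months, with 1 high library in each group and a difference of -1.01 ± 0.85. Scd1, a desaturase, was at 2697, 2959, 2198 and 2376 CPM at 4 months and 3516, 2425, 5439 and 6126 CPM at 2 months, with overlap. Its interaction was -1.62 ± 0.47 (adjusted p = 0.275 by edgeR), with a sham difference of 0.81. Fat cell genes in general differed less. Of 17 measured 10 were negative (45.4% of all genes), with a median of -0.08 against 0.06 in sham aortas. Their sums in Ang II aortas were 38656 to 45164 CPM at 4 months and 33974 to 49537 CPM at 2 months. Cebpa, a transcription factor of fat cells, was the 1 of these apart, at 777 to 1004 CPM at 4 months and 1187 to 1548 CPM at 2 months. Among all genes 3.96% were apart and lower. Of the 17, edgeR called 0, 1 higher and 2 lower had an unadjusted p under 0.05 (4.97% and 5.73%), and DESeq2 called 1 lower (0.887%). In sham aortas 5 of the 17 were apart and higher (3.61% of all genes there). With an adipocyte covariate the median of the synthesis list was -0.62.

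**Figure D4:**
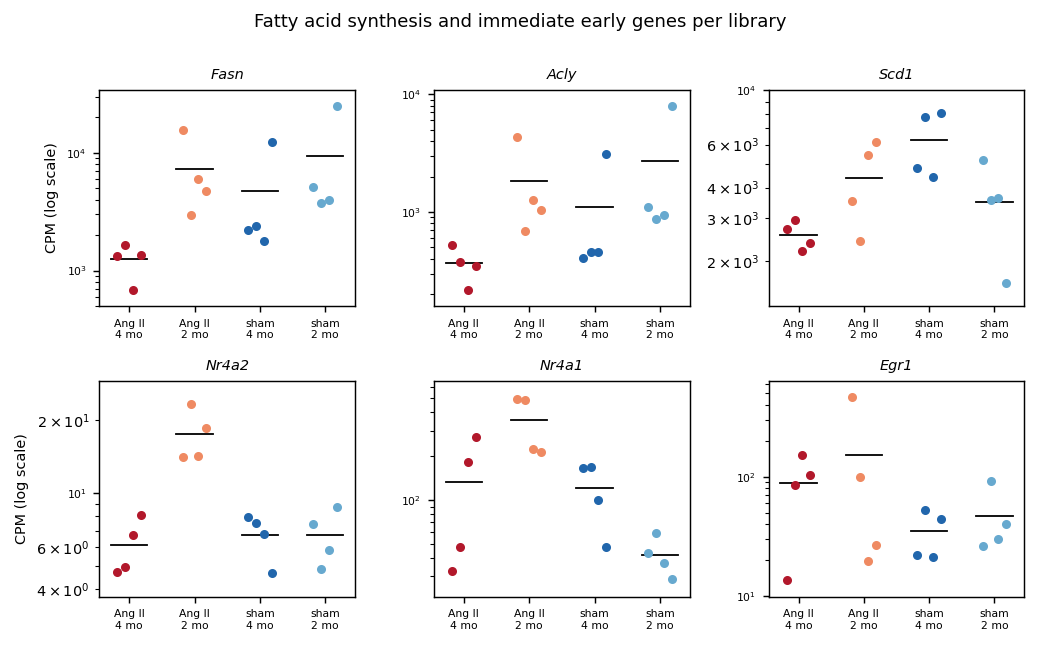
CPM (log scale) of 3 genes of fatty acid synthesis (Fasn, Acly, Scd1) and 3 immediate early genes (Nr4a2, Nr4a1, Egr1) in each library, with Ang II at 4 and 2 months and sham at 4 and 2 months from left to right. Points are libraries and lines are group means. Fasn was at 15725 CPM in 1 Ang II library at 2 months, and Nr4a2 in the 2-month Ang II libraries lay above all others.

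Genes of the extracellular matrix were lower at 4 months by small amounts. All 16 collagen genes had a negative difference (45.4% of all genes), 8 of them apart (3.96% of all genes apart and lower), with a median of -0.37 against 0.02 for all genes. Of the 16, edgeR called 0, 11 lower had an unadjusted p under 0.05 (5.73%) and DESeq2 called 3 lower (0.887%). Col3a1, a fibrillar collagen of the vessel wall, was at 354, 273, 250.2 and 305 CPM at 4 months and 386, 437, 515 and 411 CPM at 2 months (log2 -0.55 ± 0.13, adjusted p = 0.2397 by edgeR). Col1a1, of type I collagen, was at 199.6, 177, 128 and 179 CPM at 4 months and 259, 243, 227 and 213 CPM at 2 months (log2 -0.45 ± 0.13, adjusted p = 0.339 by edgeR). Both were apart. Col5a3 was at 43.3 to 69.4 CPM at 4 months and 92.9 to 107 CPM at 2 months (log2 -0.81 ± 0.13). In sham aortas the same list had a median of -0.97, with Col3a1 at -1.03 and Col1a1 at -1.31. There too 8 of the 16 were apart and lower (6.01% of all genes in sham aortas).

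Of 23 genes of the elastic fibre and its crosslinking, 20 were negative (45.4% of all genes) and 7 apart and lower (Fbn1, Loxl1, Ltbp3, Fbln1, Ltbp4, Fbln2 and Mfap5), against 3.96% of all genes, with a median of -0.27 against -0.94 in sham aortas. Of the 23, edgeR called 0, 8 lower had an unadjusted p under 0.05 (5.73%) and DESeq2 called 5 lower (0.887%). Fbn1, the fibrillin that scaffolds elastic fibres, was at 34.2, 42.3, 30.2 and 43.03 CPM at 4 months and 66.9, 71.2, 64.6 and 61.7 CPM at 2 months (log2 -0.803 ± 0.13, adjusted p = 0.173 by edgeR). Loxl1, which crosslinks elastin, was at 31.2 to 39.9 CPM at 4 months and 48.9 to 71.9 CPM at 2 months. Both were apart. Eln itself, the gene of elastin, was at 140.2, 121, 54.7 and 78.3 CPM at 4 months and 241, 120.1, 86.96 and 117 CPM at 2 months (log2 -0.51 ± 0.37, adjusted p = 0.628 by edgeR), with overlap. The Eln difference was -0.14 without 2-month replicate 1 and -0.34 without 4-month replicate 3. In sham aortas Eln was at 63.2, 73.97, 63.7 and 392 CPM at 4 months and 525 to 1489.8 CPM at 2 months (log2 -2.74 ± 0.69, adjusted p = 0.125 by edgeR). Of 22 genes of the list measured in sham aortas, 7 were apart and lower (6.01% of all genes there). The interaction of Eln was 2.201 ± 0.82 (adjusted p = 0.376 by edgeR).

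Contractile genes of smooth muscle were all negative, 24 of 24 (45.4% of all genes), with 2 apart (Smtn and Synpo2; 3.96% of all genes) and a median of -0.48. Of these, edgeR called 0, 4 lower had an unadjusted p under 0.05 (5.73%) and DESeq2 called 0. Acta2, the smooth muscle actin, was at 371, 261, 134 and 251 CPM at 4 months and 806, 358, 274 and 313 CPM at 2 months (log2 -0.77 ± 0.395, adjusted p = 0.511 by edgeR). The groups overlapped, and the highest value was that of the 2-month replicate 1. Without it the Acta2 difference was -0.31 and the median of the list -0.31, with 22 of 24 negative. The sham aortas had a median of -1.58, with 17 of 24 apart and lower (6.01% of all genes in sham aortas). Acta2 was there at 263, 286, 272 and 1262 CPM at 4 months, with replicate 4 far above the rest, and 1529 to 3932 CPM at 2 months. The Acta2 levels of both Ang II groups lay below those of the 2-month sham group. The interaction over this list had a median of 1.06 and 9 of 24 at an unadjusted p under 0.05 (10.6% of all genes).

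Among proteases and their inhibitors the members went both ways. Of 18 measured, 2 were apart and higher and 3 apart and lower (2.09% and 3.96% of all genes). Of these 18, edgeR called 0, 4 higher and 4 lower had an unadjusted p under 0.05 (4.97% and 5.73%), and DESeq2 called 2 higher and 2 lower (0.655% and 0.887%). Timp4, an inhibitor of matrix metalloproteinases, was at 128, 119.5, 110.2 and 112 CPM at 4 months and 44.5, 47.03, 66.6 and 74.3 CPM at 2 months (log2 1.03 ± 0.16, adjusted p = 0.173 by edgeR). Its 2-month Ang II libraries lay below all 12 others, and its sham difference was -0.13. Timp3 was at 156 to 215 CPM at 4 months and 135 to 148 CPM at 2 months (log2 0.47 ± 0.11), against -0.33 in sham aortas. Adamts1, which cleaves proteoglycans, was at 17.9 to 41.3 CPM at 4 months and 51.2 to 67.8 CPM at 2 months, and Adamts4 was at 0.852 to 1.79 CPM at 4 months and 3.02 to 5.89 CPM at 2 months. Both were apart. Thbs1, a matricellular protein that activates TGF-beta, was at 16.99 to 33.9 CPM at 4 months and 34.3 to 89.8 CPM at 2 months (log2 -1.33 ± 0.32).

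Of the TAM receptors, which bind GAS6 and protein S on dying cells and restrain inflammation, Mertk was apart. Among the 5 genes of these receptors and their ligands, 1 was apart and higher and 1 apart and lower (2.09% and 3.96% of all genes). Of the 5, edgeR called 0, 2 higher and 1 lower had an unadjusted p under 0.05 (4.97% and 5.73%), and DESeq2 called 1 higher (0.655%). Mertk was at 39.99, 38.7, 27.4 and 32.7 CPM at 4 months and 23.4, 24.5, 18.7 and 23.1 CPM at 2 months (log2 0.64 ± 0.14, adjusted p = 0.225 by edgeR). In sham aortas it was at 18.2 to 33.4 CPM at 4 months and 31.2 to 45.2 CPM at 2 months, with a difference of -0.69 ± 0.21. The interaction was 1.29 ± 0.26 (adjusted p = 0.198 by edgeR). Axl was at 80.5, 96.5, 67.3 and 92.8 CPM at 4 months and 116, 105, 88.7 and 77.96 CPM at 2 months. Its groups overlapped, with a difference of -0.19 ± 0.16 (adjusted p = 0.687 by edgeR) against -0.92 ± 0.29 in sham aortas and an interaction of 0.69 ± 0.35 (adjusted p = 0.507 by edgeR). Leaving out any 1 library put the Axl difference between -0.297 and -0.104.

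Tyro3, the remaining TAM receptor, was at 22.7, 18.9, 7.61 and 14.5 CPM at 4 months and 7.35, 12.5, 6.25 and 5.77 CPM at 2 months (log2 1.001 ± 0.37, adjusted p = 0.412 by edgeR), with overlap. Gas6 was at 142 to 159.7 CPM at 4 months and 168 to 255 CPM at 2 months (log2 -0.33 ± 0.14, adjusted p = 0.459 by edgeR), and was apart. Without 2-month replicate 1, the highest, the Gas6 difference was -0.18. Pros1, the gene of protein S, was at 42.2 to 53.7 CPM at 4 months and 39.9 to 47.9 CPM at 2 months (log2 0.14 ± 0.098). The ligands thus had differences of opposite sign, neither of which passed the test. Agtr1a, the main receptor of Ang II, was at 54.02, 31.04, 25.5 and 39.6 CPM at 4 months and 17.9, 30.4, 19.2 and 29.4 CPM at 2 months (log2 0.64 ± 0.27, adjusted p = 0.461 by edgeR), and its sham difference was 0.798. Without 4-month replicate 1 the Agtr1a difference was 0.41. Enpep, the peptidase that cleaves Ang II, was at 27.03 to 35.3 CPM at 4 months and 41.98 to 73.5 CPM at 2 months. Nr3c2, the mineralocorticoid receptor, was at 10.6 to 12.7 CPM at 4 months and 15.2 to 17.04 CPM at 2 months, and both it and Enpep were apart and lower. Of 7 renin, angiotensin and aldosterone genes measured, 0 were apart and higher and 2 apart and lower (2.09% and 3.96% of all genes). Of the 7, edgeR called 0, 1 higher and 2 lower had an unadjusted p under 0.05 (4.97% and 5.73%), and DESeq2 called 2 lower (0.887%).

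Of 24 macrophage genes measured 21 were positive (54.6% of all genes), with a median of 0.28 against -0.06 in sham aortas, and 2 were apart and higher, Mertk and the scavenger receptor Cd163 (2.09% of all genes). Of the 24, edgeR called 0, 5 higher had an unadjusted p under 0.05 (4.97%) and DESeq2 called 1 higher (0.655%). The median was 0.19 without 4-month replicate 2 and 0.18 without 2-month replicate 4. Cd68 was at 29.2 to 39.3 CPM at 4 months and 27.2 to 39.01 CPM at 2 months, and Adgre1 was at 19.8 to 28.1 CPM at 4 months and 20.5 to 27.8 CPM at 2 months, both with overlap. All 21 T and NK cell genes were positive (54.6% of all genes), with a median of 0.87 against 0.96 in sham aortas. However, 0 were apart (2.09% of all genes apart and higher), 1 was higher at an unadjusted p under 0.05 (4.97%), and edgeR and DESeq2 called 0. Cd3e, a chain of the T cell receptor complex, was at 1.804, 2.99, 15.3 and 10.6 CPM at 4 months and 2.32, 8.89, 4.12 and 1.32 CPM at 2 months. The 2 high libraries at 4 months were those with liver transcripts, and without them the median of this list was -0.42. It was 0.36 without 4-month replicate 3 alone, 1.58 without 2-month replicate 2 and 0.56 without 2-month replicate 4.

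In the endothelium 5 of 23 genes were apart and lower (3.96% of all genes), and the median was -0.07 against -0.18 in sham aortas. Of the 23, edgeR called 0, 1 higher and 5 lower had an unadjusted p under 0.05 (4.97% and 5.73%), and DESeq2 called 2 lower (0.887%). Leaving out any 1 library put the median between -0.16 and -0.002. Cldn5, a tight junction protein, was at 85.04, 103, 106 and 114 CPM at 4 months and 222, 164, 144 and 208 CPM at 2 months (log2 -0.83 ± 0.16, adjusted p = 0.195 by edgeR). The interaction with sham was -1.16 ± 0.25 (adjusted p = 0.198 by edgeR), and the 2-month Ang II libraries lay above all 12 others. Vwf, which binds platelets, was at 54.1 to 74.3 CPM at 4 months and 87.1 to 132 CPM at 2 months. Apold1, an early response gene of endothelium, was at 4.01, 4.73, 24.9 and 25.3 CPM at 4 months and 95.9, 58.3, 34.1 and 46.3 CPM at 2 months. Pecam1 overlapped between the times, with a difference of -0.12.

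The 4 haemoglobin transcripts measured, which red blood cells carry, were apart and higher at 4 months in Ang II aortas. In sham aortas their differences were 1.38 for Hba-a1, 1.498 for Hba-a2, 1.53 for Hbb-bs and 1.68 for Hbb-bt, and the groups overlapped. Of 9 erythroid and platelet genes all were positive in Ang II aortas (54.6% of all genes) and these 4 were apart (2.09% of all genes), with a median of 1.61 in Ang II and 1.498 in sham aortas. In sham aortas 3 of the 9 were apart and higher (3.61% of all genes). In Ang II aortas edgeR called 0 of the 9, 8 higher had an unadjusted p under 0.05 (4.97%) and DESeq2 called 4 higher (0.655%). Hbb-bs was at 149.9, 111, 233 and 264 CPM at 4 months and 84.4, 32.1, 68.5 and 85.1 CPM at 2 months (log2 1.51 ± 0.36, adjusted p = 0.242 by edgeR). These genes are near-identical pairs, so the split of reads within a pair is uncertain. Without the 2 liver-rich libraries the median of the list was 0.81.

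Of the further lists, oxidative phosphorylation had a median of -0.03 and ribosomal proteins 0.13 in Ang II aortas, against 0.32 and -0.05 in sham aortas. Interferon-stimulated genes had a median of 0.21, with 1 of 23 apart and higher (2.09% of all genes). Antigen presentation had 0.27 with 0 of 15 apart, and cell cycle genes 0.42 with 22 of 23 positive (54.6% of all genes) and 0 apart. The median of all genes was 0.02 in Ang II aortas. Over these 5 lists edgeR and DESeq2 called 0, and 3 interferon-stimulated genes were higher at an unadjusted p under 0.05 (4.97% of all genes). Schwann cell and neuronal genes had a median of 0.64, against 0.54 in sham aortas, with 17 of 18 positive (54.6%) and 0 apart. Of these, 3 were higher at an unadjusted p under 0.05 (4.97%), while edgeR and DESeq2 called 0. Genes of the integrated stress response went both ways, with a median of 0.03. Of 16 measured, 2 were apart and higher and 1, Sesn2, apart and lower (2.09% and 3.96% of all genes). Of the 16, edgeR called 0, and 2 higher and 2 lower had an unadjusted p under 0.05 (4.97% and 5.73%). DESeq2 called 1 higher and 1 lower (0.655% and 0.887%). Sesn2, a stress-induced inhibitor of mTORC1, was at 10.1 to 18.5 CPM at 4 months and 22.3 to 42.97 CPM at 2 months (log2 -1.25 ± 0.27), against 0.47 in sham aortas. Its interaction was -1.77 ± 0.38 (adjusted p = 0.198 by edgeR). Pfkfb3, which drives glycolysis, was at 317 to 430.1 CPM at 4 months and 517 to 630.3 CPM at 2 months (log2 -0.53 ± 0.12), against 0.29 in sham aortas. The ribosomal RNA share and the transcripts of other tissues moved within or between the groups as given above, and beyond the libraries left out their part in these differences was not tested.

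**Figure D5:**
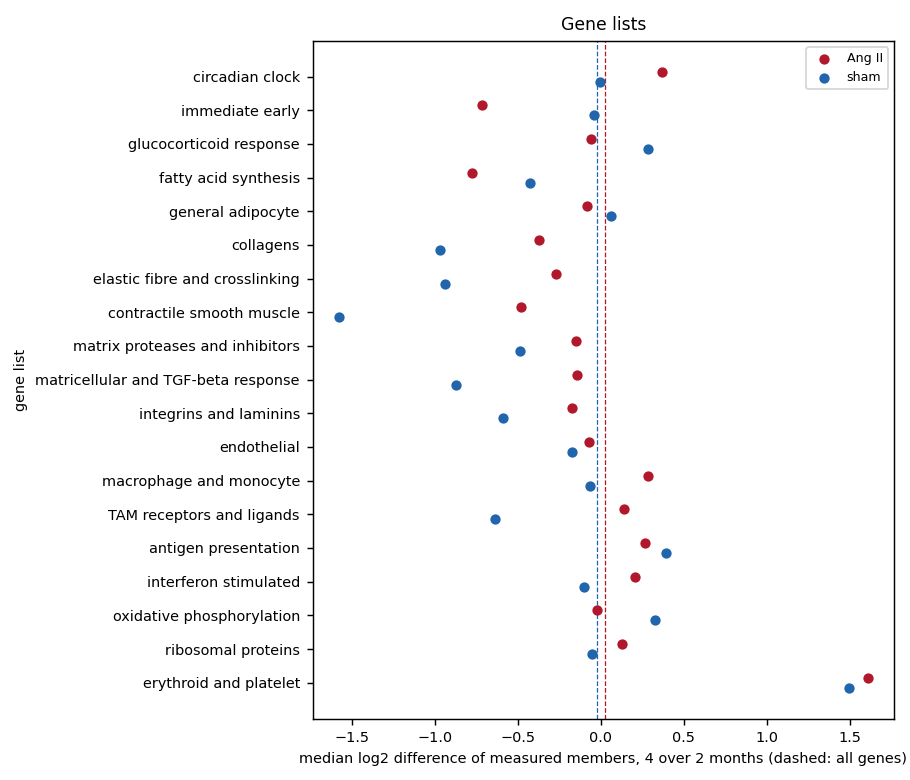
Median log2 difference of 4 over 2 months (x axis) over the measured members of 19 gene lists (y axis), in Ang II aortas (red) and sham aortas (blue). Dashed lines are the medians of all genes tested, 0.02 and -0.02. The collagen list lay at -0.37 in Ang II and -0.97 in sham aortas, and the contractile list at -0.48 in Ang II and -1.58 in sham aortas.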

How the data were processed

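Aortic homogenates were sequenced with an mRNA kit, per the labels' protocols. The submitters' processing notes list mm10 as the build and, as tools, STAR, featureCounts, cutadapt, FastQC and DESeq2, with no versions, strand setting or rule for shared reads. The authors deposited whole-number read counts for 37606 genes, of which 77 had no symbol in their comparison tables or the reference annotation.

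In R 4.3.3, edgeR 4.0.16 was run on the counts: filterByExpr (minimum count 10, minimum total 15), TMM, the quasi-likelihood F test and Benjamini-Hochberg adjustment at 0.05. The 8 Ang II and the 8 sham libraries were each fitted alone, and the interaction used all 16. SE is the log2 difference over the square root of F. The scripts were tested on simulated data. Alternatives were DESeq2 1.42.0, its size factors in edgeR, limma 3.58.1 voom with quality weights, no filter, a mean count of at least 5, an adipocyte covariate, mitochondrial and ribosomal RNA genes left out, a replicate block, a minimum absolute log2 difference of 1, 1 fit over 16 libraries, and libraries left out.

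Named genes were, by a rule, called genes with a mean CPM of at least 1, the 5 highest and 5 lowest by signed p where fewer than 10 were called, and 10 genes of the renin, TAM and wall systems. Other genes belong to lists described by counts and medians. The members, lists and rule were chosen with earlier results of these data known.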

Additional observations from a re-analysis of the deposited data

Results flagged for a closer look

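Of 210 sets of 4 Ang II values tested (89 genes and 16 list sums at each time), 10 (4.76%) had a sample far from the other 3, and chance gives about 1 in 20. Sham values were not tested in this way. The 2-month replicate 1 was that sample in 8 of the 10. It held Acly at 4351.28 CPM, Srebf1 at 996.899 CPM, Acta2 at 806.107 CPM and Gas6 at 255.051 CPM. It also held Fos at 106.498 CPM, Tshr at 90.2863 CPM, Bhlhe40 at 74.9935 CPM and Npas2 at 13.3077 CPM, each the highest of its group. At 4 months, Cebpa was low in replicate 1 at 776.727 CPM, and the summed liver transcripts were high in replicate 4 at 2779.64 CPM.

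Of the 89 genes, Apold1 was the 1 apart in opposite directions in the treatments. For Apold1 every Ang II library was lower at 4 months than at 2 months, and every sham library was higher. Its interaction was -2.70756 on the log2 scale and did not pass in edgeR. Genes outside the 89, such as Banp, Enc1 and Cd9, were also apart in opposite directions. The share of all genes with this pattern was not counted.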

How the results depend on the processing

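The Ang II comparison called 1 gene. It called 2 with DESeq2 size factors in edgeR, 266 with DESeq2, 20 with limma voom, 3 with no filter and 2 without mitochondrial and ribosomal RNA genes. It called 0 with the adipocyte covariate, 0 without the 2 airway-rich 2-month libraries, 0 without all 4 airway-rich libraries and 0 without the 2 liver-rich libraries. The settings without 4 airway-rich or 2 liver-rich libraries were added after seeing the data. Leaving out 1 library gave 0 to 1. The fit over 16 libraries called 1 gene, with 0 shared, and Cyp2b10 then had an adjusted p of 0.0865 by edgeR. Over the 20 named genes, 361 of 400 alternatives kept direction and side of the threshold, 25 gained a call, 12 lost one and 2 reversed. All 12 losses were of Cyp2b10, which kept its call in 8 alternatives. The other named genes were not called in the main fit, so for them keeping the side meant staying uncalled. Axl, negative otherwise, was 0.0051 with voom and 0.0178 without 2-month replicates 1 and 2.

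The sham comparison called 1 gene, against 733 with DESeq2, 801 with voom, 4 with no filter, 0 with the covariate and 346 in 1 fit over 16 libraries. Leaving out 1 library gave 0 to 641, the highest without 4-month replicate 4. The interaction called 0 genes, against 1 with DESeq2 size factors, 181 with DESeq2, 467 with voom, 1 at a mean count of at least 5, 1 without mitochondrial and ribosomal RNA genes, 1 without the 2 airway-rich 2-month libraries and 35 without the liver-rich libraries. Leaving out 1 library gave 0 to 128, the highest without sham 4-month replicate 4. The cause of these changes was not tested. The labels do not say whether the replicate numbers pair the samples. In the 8 Ang II libraries, deviations from the group mean on log2 CPM were correlated between same-numbered replicates of the 2 times. The correlations were -0.14, 0.066, 0.38 and -0.43 for replicates 1 to 4. Pairing of the sham libraries was not checked in this way. With a replicate block the Ang II comparison called 1 gene and the sham comparison 140.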
